A study of Mus musculus with 4 samples.

Results

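Megakaryocytes, the cells that make platelets, were described among cells of the aorta-gonad-mesonephros (AGM) region of mouse embryos at E11.5, sorted for CD31 per the labels. They were chosen by measured values. A cell was taken when it had at least 2000 unique molecular identifiers (UMIs, each standing for 1 captured mRNA molecule), 1000 or more detected genes, and a share of mitochondrially encoded UMIs below 25%. It also had to have at least 4 of the 10 genes Itga2b, Gp9, Gp1bb, Gp5, Gp6, Treml1, Pf4, Rab27b, Itgb3 and Ppbp detected, with their summed UMIs at 15 or more per 10000 UMIs of the cell. This rule found 2517 of 44168 filtered cells, or 5.70%. Because these 10 genes chose the cells, their levels are given as a description with no test between megakaryocytes and other cells.

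Per the labels the strain is C57BL/6J, and apart from the dye of the sort they name no further allele or agent. The dye, TMRM, accumulates in mitochondria according to their membrane potential. MMPlow denotes the cells with weak and MMPhigh those with strong TMRM signal, and each fraction was sequenced as 2 droplet libraries with the 10x Genomics 3' v3 chemistry. Per the labels all 4 libraries were sorted as CD31-positive. Pecam1, which encodes CD31, had at least 1 UMI in 25.9%, 24.5%, 13.1% and 6.34% of megakaryocytes of MMPlow 1, MMPlow 2, MMPhigh 1 and MMPhigh 2, each cell thinned to 2000 UMIs. In all other filtered cells it was 39.7%, 38.7%, 3.41% and 3.92%, and the endothelial gene Cdh5 was in 36.1%, 35.2%, 0.818% and 0.568% of them. Summed neural markers stood at 385, 377, 2119 and 2568 CPM in those cells. At this depth the transcripts of the other MMPhigh cells thus went against the label of the sort, which reads protein, not RNA. Pecam1 was in 2.26% and 1.84% of thinned MMPhigh cells that were neither megakaryocytes nor macrophages (defined below). Without thinning it was in 16.6% and 53.5% of macrophages and 31.1% and 49.3% of megakaryocytes of MMPhigh 1 and MMPhigh 2. Each statement below that sets megakaryocytes against other cells of MMPhigh rests on those other cells. The study's question was which transcripts go with mitochondrial activity in the cells from which stem cells arise. The labels do not say whether the 2 libraries of a fraction came from separate embryos or pools, so p-values measure the spread between these libraries, which may be technical.

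Megakaryocytes arise from haematopoietic progenitors that also give erythroid cells. The transcription factors GATA1, its cofactor FOG1 (encoded by Zfpm1), GFI1B, NFE2, RUNX1 and the ETS factors FLI1 and ERG control much of the lineage's programme. Maturing cells replicate their DNA without dividing (endomitosis), load alpha and dense granules, place the integrin of Itga2b and Itgb3 and the glycoprotein complex of Gp1ba, Gp1bb, Gp9 and Gp5 on their surface, and extend microtubule-driven proplatelets. The AGM is the region where definitive haematopoietic stem cells first appear, and several genes of stem cells, such as Itga2b, Vwf and Kit, are shared with this lineage.

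Promoters of genes that set the members apart are shown because the lineage's factors of the GATA and ETS families read short sequence motifs. RefSeq promoter sequences (build GRCm38.p6, 250 bases before to 50 after the first listed start of each gene) were matched by symbol for 21 of 30 genes, the 10 of the rule and the 20 genes outside it that most set the members apart. Motifs were searched on both strands as AGATAA or TGATAA for GATA factors and AGGAAG or CGGAAG for ETS factors, and capitals mark every match. The lines show 120 bases of the gene's own strand that end near the last match before the start, for Itga2b and Gp5 of the minus strand and Pf4 and F2rl2 of the plus strand.
Itga2b, encoding integrin alpha IIb, chr11:102469911-102470030: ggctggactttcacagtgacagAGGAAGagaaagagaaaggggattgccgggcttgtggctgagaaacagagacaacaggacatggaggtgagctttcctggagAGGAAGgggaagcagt
Gp5, encoding glycoprotein V, chr16:30310814-30310933: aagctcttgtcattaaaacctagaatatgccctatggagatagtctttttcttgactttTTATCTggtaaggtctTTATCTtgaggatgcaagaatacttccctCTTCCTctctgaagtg
Pf4, encoding platelet factor 4, chr5:90772315-90772434: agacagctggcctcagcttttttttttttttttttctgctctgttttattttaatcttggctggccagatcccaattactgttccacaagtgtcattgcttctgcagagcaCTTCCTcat
F2rl2, encoding the thrombin receptor PAR3, chr13:95696721-95696840: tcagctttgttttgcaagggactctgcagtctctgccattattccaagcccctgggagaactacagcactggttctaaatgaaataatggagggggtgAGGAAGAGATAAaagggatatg
Of the 21 matched promoters, 5 (23.8%) held a GATA motif, 10 (47.6%) an ETS motif and 3 (14.3%) both, against 18.95%, 46.4% and 7.85% of all 27025 promoters of the same length. The 3 with both were Gp5, Pf4 and F2rl2, and the GATA match of Pf4 lies after the start and is not shown. In F2rl2 an ETS and a GATA motif follow each other with no base between them, and in Gp5 a pair of GATA motifs precede the ETS motif. These shares lie near those of all promoters except that of both motifs, which rests on 3 genes, and a match is a description of letters, not evidence of binding.

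The libraries differed in size and depth. MMPlow 1 and 2 held 16700 and 19579 filtered cells, of which 1032 and 1221 were megakaryocytes, and MMPhigh 1 and 2 held 4403 and 3486, of which 122 and 142 were. The median UMIs per megakaryocyte were 3093, 4036 and 3536.5 in MMPlow 1, MMPlow 2 and MMPhigh 1 but 17719.5 in MMPhigh 2, so that library stands apart in depth. The summed UMIs of the members, the depth behind every level below, were 3919509 and 6317095 in MMPlow and 1093877 and 3968321 in MMPhigh. Members with at least 5000 UMIs and 2000 genes numbered 165, 412, 41 and 115 in MMPlow 1, MMPlow 2, MMPhigh 1 and MMPhigh 2. They held 1256903, 3557229, 845315 and 3868459 of these UMIs. In MMPhigh 1 most of the sum thus came from 41 of 122 members, so its levels weigh the deeper cells more than those of MMPlow 1 do. The libraries MMPlow 1 and MMPlow 2 shared 1 member barcode, as did MMPlow 1 and MMPhigh 2. Doublet removal, an alternative, took out 121 and 111 members in MMPlow and 7 and 0 in MMPhigh. That was 11.7%, 9.09%, 5.74% and 0% of members in MMPlow 1, MMPlow 2, MMPhigh 1 and MMPhigh 2. Of the other cells it took out 6.14%, 4.82%, 6.12% and 2.03%, so members exceeded other cells in MMPlow only. The Scrublet caller marked 2 and 0 cells in MMPlow 1 and MMPhigh 1 and was taken not to have worked there, so the highest doublet scores were removed in its place.

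Levels are given as CPM, the UMIs of a gene summed over the members of a library and scaled to 1000000 UMIs of those members. Pf4, which encodes an alpha granule chemokine, carried most of the UMIs of the rule. It stood at 7136 and 8418 CPM in MMPlow and 11783 and 8913 CPM in MMPhigh in megakaryocytes, and at 327 and 334 CPM in MMPlow and 116 and 70.6 CPM in MMPhigh in all other filtered cells. Ppbp, encoding another alpha granule chemokine, stood at 173 and 206 CPM in MMPlow and 604 and 315 CPM in MMPhigh, so that its libraries did not overlap between fractions. Those of Pf4 did not overlap either, nor did those of Itga2b, with MMPhigh lower. Over all genes tested the libraries of 60.1% did not overlap. Itga2b, the alpha chain of the fibrinogen receptor, stood at 821 and 593 CPM in MMPlow and 529 and 448 CPM in MMPhigh, and its beta chain gene Itgb3 at 989 and 754 CPM in MMPlow and 767 and 579 CPM in MMPhigh. Both integrin genes were lowest in MMPhigh 2, while the 2 MMPlow libraries and MMPhigh 1 overlapped for Itgb3.

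The libraries of the other 6 rule genes overlapped between the fractions. Rab27b, a small GTPase needed for dense granule formation, stood at 973 and 1009 CPM in MMPlow and 1141 and 925 CPM in MMPhigh. Treml1, encoding a receptor stored in alpha granules, stood at 377 and 398 CPM in MMPlow and 379 and 342 CPM in MMPhigh. The subunit genes of the von Willebrand factor receptor were lower in the sums, and each was lowest in MMPhigh 2. Gp9 stood at 253 and 273 CPM in MMPlow and 267 and 196 CPM in MMPhigh, Gp5 at 225 and 202 CPM in MMPlow and 256 and 112 CPM in MMPhigh and Gp1bb at 29.9 and 28.7 CPM in MMPlow and 35.7 and 16.1 CPM in MMPhigh. Gp6, encoding the collagen receptor glycoprotein VI, stood at 91.6 and 77.4 CPM in MMPlow and 83.2 and 43.3 CPM in MMPhigh. In the fit described below the log2 fold changes of 9 of the 10 genes lay between -0.39 (Itga2b) and 0.55 (Pf4), and that of Ppbp was 1.40. These folds are a description too, since the rule read the same UMIs.

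**Figure D1:**
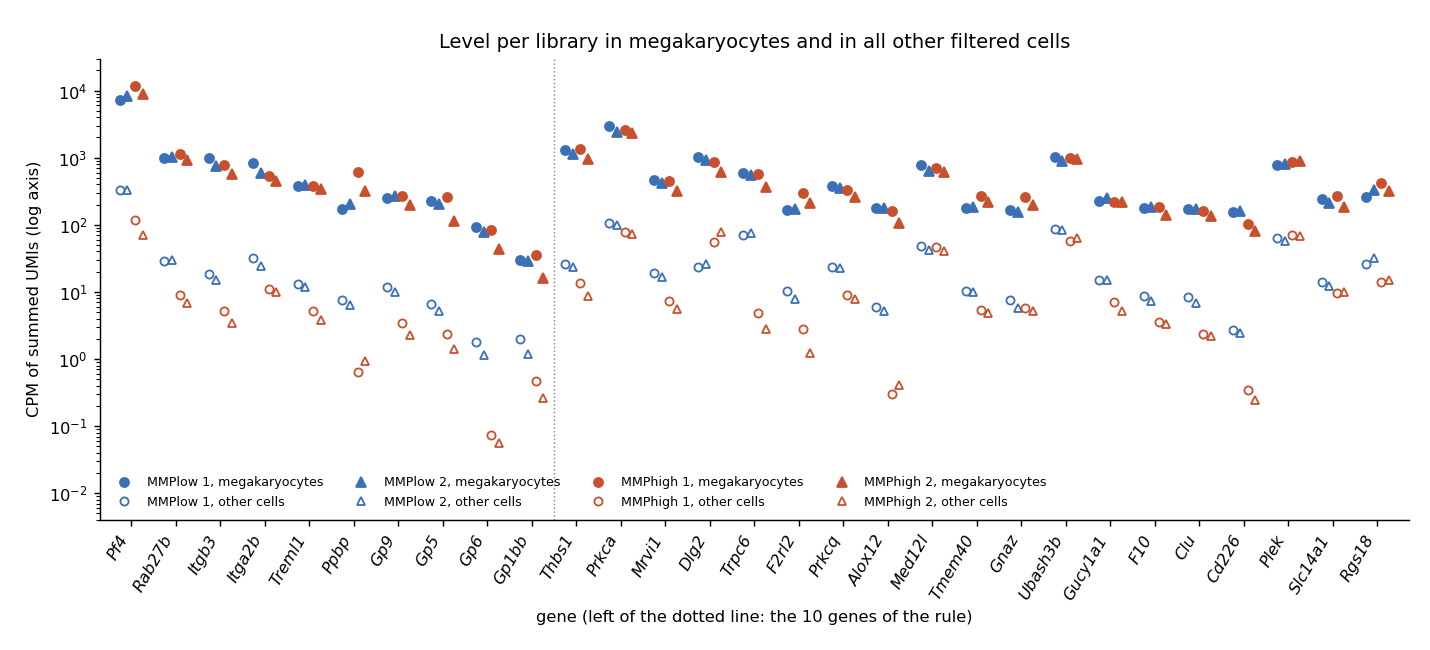
CPM on a log axis of the 10 genes of the rule (left of the dotted line) and of 19 leading genes outside it, in megakaryocytes (filled) and in all other filtered cells (open). Blue points are MMPlow, red points MMPhigh, circles replicate 1 and triangles replicate 2. Every filled point lies above the open points of the same gene, and the filled points of a gene lie close together in most cases.

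A single marker given for these cells was not part of the rule. Thbs1, encoding the alpha granule protein thrombospondin 1, stood at 1319.6 and 1153 CPM in MMPlow and 1342 and 954 CPM in MMPhigh in megakaryocytes and at 25.8 and 23.2 CPM in MMPlow and 13.7 and 8.72 CPM in MMPhigh in other cells. Its log2 fold over other cells, computed with 10 CPM added, averaged 5.47 and ranged from 5.13 to 5.83 over the 4 libraries. After each cell was thinned to 2000 UMIs, Thbs1 had at least 1 UMI in 79.6%, 73.9%, 78.7% and 64.8% of members and in 5.21%, 4.73%, 2.87% and 2.66% of all other filtered cells, in the same order of libraries. Pf4 was less exclusive in such cells, with at least 1 UMI in 90.1%, 91.97%, 89.3% and 87.3% of members, 55.9%, 56.9%, 34.6% and 23.5% of macrophages and 50.8%, 52.05%, 17.9% and 3.43% of the remaining cells. Pf4 UMIs were thus common outside the members, most of all in MMPlow.

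Genes outside the rule that led in the members over other cells included kinases, a channel and a receptor of platelets. They were among the 20 with the highest mean log2 fold among genes at 50 CPM or more in the members of every library, a description of cells chosen by correlated genes. Prkca and Prkcq, encoding protein kinase C isoforms, stood at 2927 and 2377 CPM in MMPlow and 2587 and 2347 CPM in MMPhigh, and at 375 and 349 CPM in MMPlow and 328 and 260.3 CPM in MMPhigh. The thrombin receptor gene F2rl2 stood at 166 and 174 CPM in MMPlow and 299.9 and 213 CPM in MMPhigh, and at 10.3 and 7.71 CPM in MMPlow and 2.79 and 1.25 CPM in MMPhigh in other cells. Alox12, encoding platelet 12-lipoxygenase, stood at 178 and 180.3 CPM in MMPlow and 158 and 106 CPM in MMPhigh. Trpc6, encoding a calcium-permeable channel, stood at 591 and 547 CPM in MMPlow and 571 and 371 CPM in MMPhigh, and Plek, encoding the protein kinase C substrate pleckstrin, at 778 and 811 CPM in MMPlow and 854 and 882 CPM in MMPhigh. Others were Mrvi1, Dlg2, Med12l, Tmem40, Gnaz, Ubash3b, Gucy1a1, F10, Clu, Cd226, Slc14a1 and Rgs18. Their mean log2 folds over other cells ran from 3.43 for Rgs18 to 5.47 for Thbs1, and the fold ranged most between libraries for Trpc6, from 2.70 to 5.28, and for Dlg2, from 2.82 to 4.96.

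The members were not uniform. Levels of Clec1b, Gp1ba, Kit and Myb, chosen after their values were seen, differed with the sum of the rule genes, as the plot of levels by rule sum shows in part. From cells at 15 to 30 rule UMIs per 10000 to cells at 120 or more, Clec1b, encoding the podoplanin receptor CLEC-2, rose from 105, 132, 64.6 and 114 CPM to 603, 707, 514 and 398 CPM in MMPlow 1, MMPlow 2, MMPhigh 1 and MMPhigh 2. Gp1ba, the ligand-binding chain of the von Willebrand factor receptor, went from 20.05, 18.3, 38.8 and 15.6 CPM to 174, 129, 99.4 and 100.3 CPM. Over the same range Kit, the stem cell factor receptor, went from 86.1, 90.99, 12.9 and 22.3 CPM to 15.3, 12.7, 1.71 and 8.02 CPM, and Myb, a progenitor transcription factor, from 77.8, 67.2, 38.8 and 46.8 CPM to 21.1, 12.2, 3.43 and 4.01 CPM. Kit and Myb thus stood lower in the highest class than in the lowest class in MMPlow 1, MMPlow 2 and MMPhigh 2. In MMPhigh 1 these are 1 and 1 UMI for Kit and 3 and 2 UMIs for Myb, too few for a direction. The summed progenitor and stem cell list did not fall step by step in MMPlow. It stood at 2443, 2676, 2669 and 1908 CPM over the 4 classes in MMPlow 1 and at 2125, 2411, 2573 and 1816 CPM in MMPlow 2, lower only in the highest class.

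Tubb1, the platelet-specific beta tubulin, went from 16.5, 25.8, 38.8 and 20.1 CPM to 152, 174, 175 and 71.04 CPM between those classes. Runx1, a transcription factor that megakaryocytes share with progenitors, went from 1145, 1040.2, 1978 and 1594 CPM to 956, 884, 1069 and 1193 CPM. Tubb1 was thus higher and Runx1 lower in the highest class than in the lowest in all 4 libraries. Runx1 did not fall step by step in MMPlow. It stood at 1145, 1604, 1618 and 956 CPM over the 4 classes in MMPlow 1 and at 1040, 1272, 1407 and 884 CPM in MMPlow 2. In MMPhigh 1 and MMPhigh 2 it was lower in each class than in the class before. The summed level of 38 S phase genes went from 3693, 4488, 4654 and 4512 CPM to 2568, 2739, 2037 and 3198 CPM, lower in the highest class in each library. Emcn, an endothelial gene, also fell along the classes in MMPlow, from 357 and 309 CPM to 114 and 105 CPM in MMPlow 1 and 2. The lowest class holds 10 cells in MMPhigh 1 and 37 in MMPhigh 2, against 216 and 289 in MMPlow. These values are a description, since the classes are cut from the UMIs of genes that vary together, and cells of 1 library are not replicates.

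**Figure D2:**
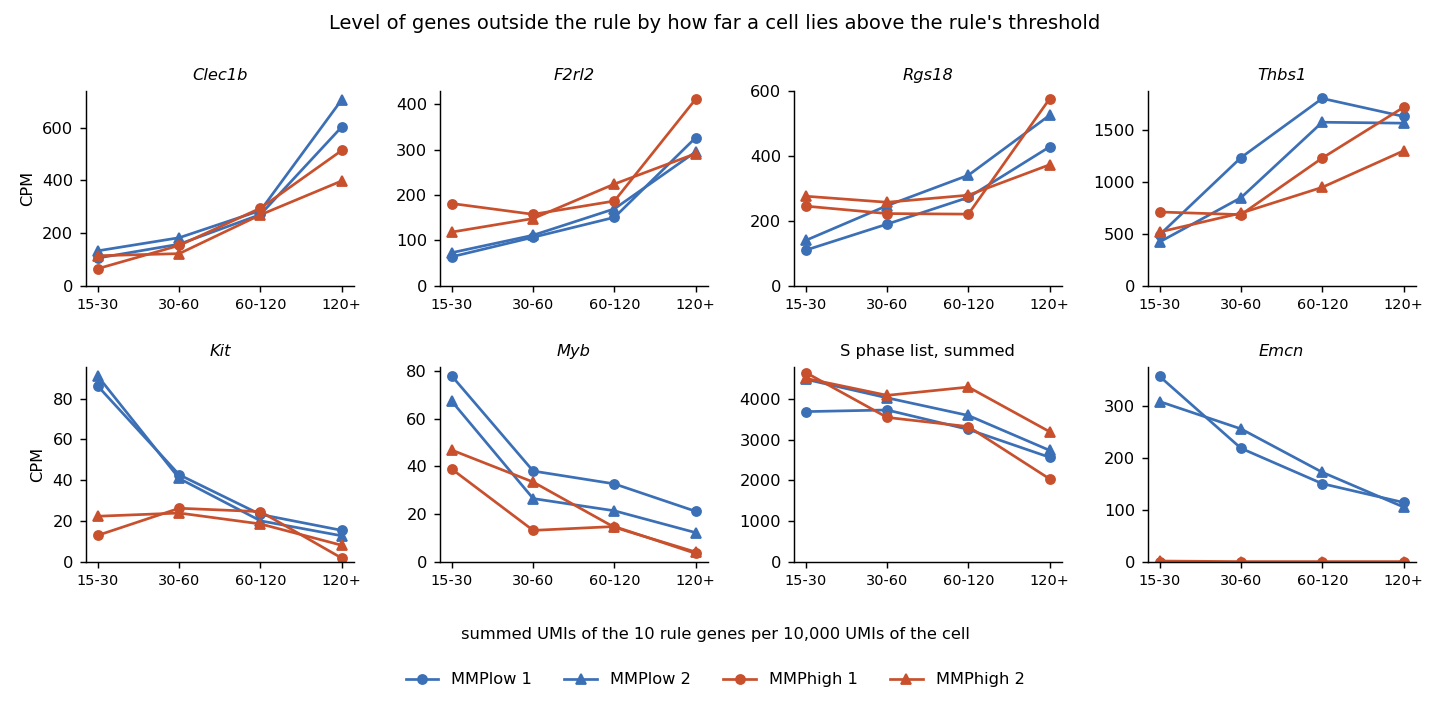
Level (CPM) of 7 genes outside the rule and the summed level of the S phase list, against the summed UMIs of the 10 rule genes per 10000 UMIs of the cell, in 4 classes (x axis). Lines are libraries, blue for MMPlow and red for MMPhigh. Clec1b, F2rl2, Rgs18 and Thbs1 stand higher and the S phase list, Kit and Myb lower in the highest class than in the lowest. In MMPhigh 1 Kit and Myb have 3 UMIs or fewer in both of those classes, too few for a direction.

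At the edge of the rule the levels varied. Cells with exactly 4 of the genes had Plek at 486, 413, 343 and 436 CPM in MMPlow 1, MMPlow 2, MMPhigh 1 and MMPhigh 2, and cells that missed the rule with exactly 3 genes at 196, 205, 461 and 242 CPM. For Thbs1 the values were 823, 529.9, 571 and 625 CPM inside and 235, 219, 461 and 112 CPM outside. Plek was thus higher inside in every library but MMPhigh 1, and Thbs1 in all 4 libraries. At the other edge, cells with 4 or more genes and a sum of 15 to under 17 per 10000 had Plek at 204, 259 and 704 CPM in MMPlow 1, MMPlow 2 and MMPhigh 2, and those at 13 to under 15 at 219, 229 and 484 CPM. No MMPhigh 1 cell lay just inside that edge. At the edge of 4 genes there were 241, 249, 24 and 15 such cells inside and 263, 299, 16 and 11 outside. The median member had 6 rule genes detected in MMPlow 1, MMPlow 2 and MMPhigh 1 and 7 in MMPhigh 2.

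Megakaryocytes made up 6.18%, 6.24%, 2.77% and 4.07% of filtered cells in MMPlow 1, MMPlow 2, MMPhigh 1 and MMPhigh 2. The exact 95% binomial intervals, which cover counting error only, were 5.82 to 6.56%, 5.90 to 6.58%, 2.31 to 3.30% and 3.44 to 4.78%. The MMPlow mean was 6.21% ± 0.040 (SD, n = 2) and the MMPhigh mean 3.42% ± 0.921 (SD, n = 2), a difference that an exact two-sided permutation test puts at p = 0.333, the smallest p that 2 libraries against 2 can give. Both MMPhigh libraries lay below both MMPlow libraries. With every cell thinned to 2000 UMIs before the rule was applied the shares were 4.96%, 4.54%, 2.27% and 2.41%, so the order held at equal UMIs per cell, while the median of detected genes per thinned member still ranged from 1138 to 1274. With a filter of at least 1000 UMIs and 500 genes the shares were 2.34%, 5.53%, 1.99% and 4.004%, and the fractions overlapped (exact permutation p = 0.667). In that setting MMPlow 1 counts 55784 cells in place of 16700, while MMPlow 2 counts 23403. The share also depends on the other cells in a fraction, and macrophages were 9.16%, 9.56%, 33.98% and 28.97% of filtered cells.

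Per megakaryocyte, the 13 genes of the mitochondrial genome took a median of 6.04%, 5.64%, 2.83% and 3.30% of UMIs in MMPlow 1, MMPlow 2, MMPhigh 1 and MMPhigh 2. In other cells it was 3.995%, 4.31%, 3.31% and 3.68%. The members' medians averaged 5.84% ± 0.286 (SD, n = 2) for MMPlow and 3.06% ± 0.332 (SD, n = 2) for MMPhigh, with an exact permutation p of 0.333, the smallest possible here. The median of this RNA share was thus lower in both libraries of the fraction sorted for high membrane potential. Members under 10% numbered 974 of 1032 and 1155 of 1221 in MMPlow and 102 of 122 and 123 of 142 in MMPhigh. A larger part of the MMPhigh members thus lay at 10% or more. In the summed UMIs the 13 genes stood at 54964 and 48041 CPM in MMPlow and 46020 and 38434 CPM in MMPhigh, a smaller gap than that of the medians. Among cells with at least 5000 UMIs and 2000 genes the medians were 3.64%, 3.29%, 3.65% and 3.22%, which overlap and differ by -0.034 percentage points between the means (exact permutation p = 1). That filter kept 165, 412, 41 and 115 members in the same order of libraries.

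**Figure D3:**
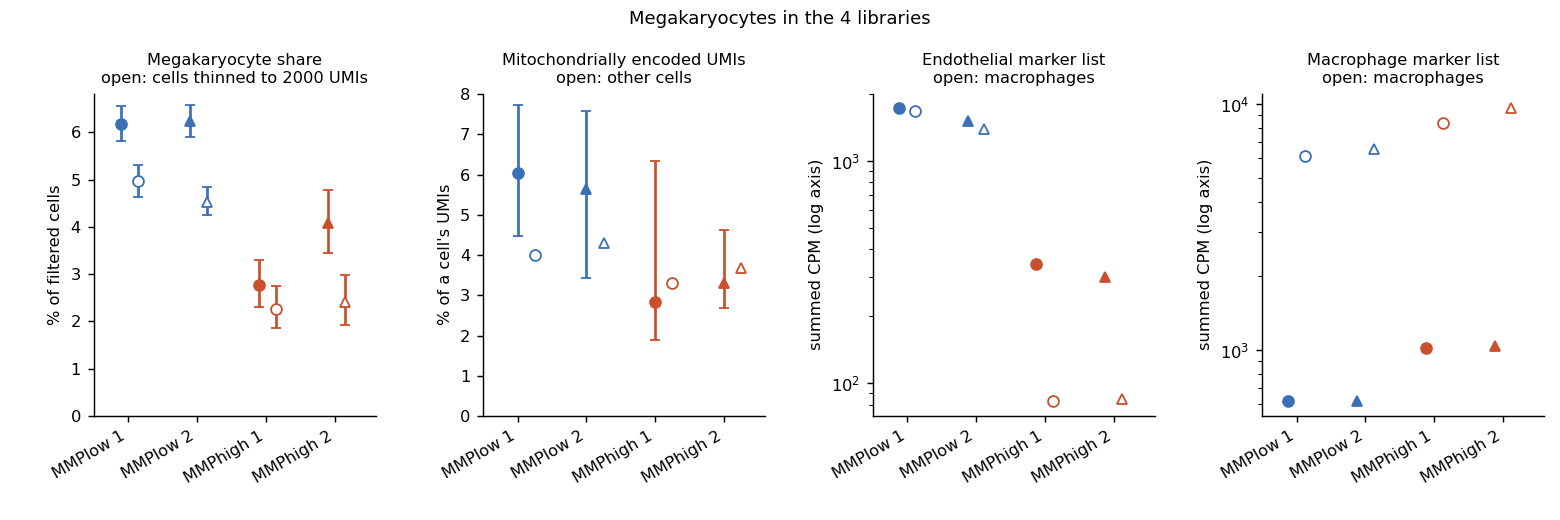
The 4 panels show, per library, the megakaryocyte share of filtered cells (bars: exact 95% interval; open: thinned cells), the median mitochondrially encoded share of UMIs per cell (bars: quartiles; open: median of other cells), and the summed CPM of the endothelial and macrophage marker lists in megakaryocytes (filled) and macrophages (open), on log axes. Endothelial marker UMIs stand at 1723 and 1504 CPM in MMPlow megakaryocytes and at 343 and 302 CPM in MMPhigh megakaryocytes.

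Markers of other cell types moved between the fractions inside the megakaryocyte sums, and these values apply to all comparisons that follow. The 18 endothelial markers summed to 1723 and 1504 CPM in MMPlow and to 343 and 302 CPM in MMPhigh, and in macrophages of the same libraries to 1671 and 1394 CPM and to 82.9 and 85.3 CPM. Sox18, Sox17, Bcl6b, Mmrn2 and Robo4 were at 0 UMIs in both MMPhigh libraries, which allows up to 2.74 CPM each in MMPhigh 1 and 0.756 CPM in MMPhigh 2. The 18 macrophage markers summed to 619 and 617 CPM in MMPlow and to 1020.2 and 1037 CPM in MMPhigh. The 14 neural markers summed to 137 and 125 CPM in MMPlow and to 221 and 549 CPM in MMPhigh. The 22 erythroid markers stood at 808, 774, 678 and 1003 CPM and did not separate the fractions. Barcodes called mixed had at least 10 UMIs per 10000 from 4 genes of another cell type. For the endothelial genes Cdh5, Emcn, Kdr and Tek they were 165 and 200 of the MMPlow members and 0 of the MMPhigh members. For the macrophage genes C1qa, C1qb, C1qc and Csf1r they were 17, 16, 29 and 32 in MMPlow 1, MMPlow 2, MMPhigh 1 and MMPhigh 2.

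Summed UMIs of the members were compared between MMPhigh and MMPlow with edgeR's quasi-likelihood test over all genes that passed its filter on low counts, 2 libraries against 2, with Benjamini-Hochberg adjustment. Fold changes are log2 of MMPhigh over MMPlow ± SE. The SE was worked back from the test, as the absolute log2 fold change divided by the square root of its F statistic. The same holds for differences between cell types. Of 12639 genes tested, 2067 (16.4%) passed an adjusted p of 0.05, with 916 (7.25%) higher and 1151 (9.11%) lower in MMPhigh, and 3789 passed an unadjusted p of 0.05. The 4 libraries did not overlap between fractions for 7596 genes (60.1%). The count varied with the library left out. It was 394 without MMPlow 1, 974 without MMPlow 2, 3277 without MMPhigh 1 and 1574 without MMPhigh 2, and 573 (305 higher and 268 lower) when cells were thinned to 2000 UMIs. Among 479 genes at least 2-fold above other cells in the members, 54 rose and 28 fell, and among 897 genes at least 2-fold below other cells 148 rose and 229 fell, a split chosen after the counts were seen. Of the 11263 genes between, 14.3% passed. The 17.1% called among genes above other cells lies near the 16.4% over all genes, while 42.03% of the genes below other cells passed.

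The 12 named genes that fell with the smallest p-values were led by endothelial and neutrophil genes. Emcn, encoding the endothelial sialomucin endomucin, stood at 204 and 201 CPM in MMPlow and 0 and 0.252 CPM in MMPhigh, with 1 UMI in all MMPhigh members, a ratio of 1024 of MMPlow to MMPhigh (95% counting interval 184 to 40451). Ptprm, a receptor phosphatase of endothelial junctions, stood at 285 and 279 CPM in MMPlow and 2.74 and 5.54 CPM in MMPhigh (-5.72 ± 0.24, adjusted p = 7.6e-09). Cdh5, encoding VE-cadherin, stood at 105 and 90.5 CPM in MMPlow and 0.914 and 0.756 CPM in MMPhigh (-6.76 ± 0.32, adjusted p = 2.1e-08). The neutrophil calprotectin gene S100a8 stood at 91.1 and 81.8 CPM in MMPlow and 0.914 and 0.756 CPM in MMPhigh (-6.58 ± 0.32, adjusted p = 2.3e-08). All 4 genes stood at 5.54 CPM or less in MMPhigh and at 81.8 CPM or more in MMPlow. The other 8 with the smallest p were Ramp2, Col4a1, Ptprb, Stfa1, Cyyr1, Zfpm2, Ecscr and Prex2, which were called under all 16 alternatives, as the first 4 were. In macrophages of the same libraries these genes fell as well, with log2 fold changes of -6.99 for Emcn, -4.60 for Ptprm, -5.57 for Cdh5 and -8.04 for S100a8. Their mean log2 folds of megakaryocytes over other cells were -1.04, -2.03, -0.83 and -0.91. The part in these falls of the endothelial UMIs that macrophages of MMPlow also carried was not tested.

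The 12 named genes that rose with the smallest p-values included transcription factors and mitotic genes. Jun, an immediate early transcription factor, stood at 30.9 and 40.2 CPM in MMPlow and 142 and 207 CPM in MMPhigh (2.44 ± 0.21, adjusted p = 1.2e-05). Zfhx4 and Zfhx3, encoding homeodomain zinc finger proteins, stood at 27.8 and 32.8 CPM in MMPlow and 91.4 and 114 CPM in MMPhigh (1.92 ± 0.18, adjusted p = 7.5e-06), and at 86.7 and 92.9 CPM in MMPlow and 227 and 207 CPM in MMPhigh (1.40 ± 0.16, adjusted p = 4.4e-05). These 3 genes passed under all 16 alternatives. Ube2c, encoding a ubiquitin-conjugating enzyme of the anaphase-promoting complex, stood at 112 and 135 CPM in MMPlow and 361 and 285 CPM in MMPhigh (1.51 ± 0.18, adjusted p = 8.3e-05), and Ccnb1, encoding cyclin B1, at 64.04 and 75.03 CPM in MMPlow and 145 and 142 CPM in MMPhigh (1.18 ± 0.16, adjusted p = 2.6e-04). Sardh, encoding the mitochondrial enzyme sarcosine dehydrogenase, stood at 76.5 and 89.6 CPM in MMPlow and 169 and 169 CPM in MMPhigh (1.16 ± 0.16, adjusted p = 2.7e-04), and Ppif, encoding cyclophilin D of the mitochondrial permeability transition pore, at 69.1 and 93.2 CPM in MMPlow and 169 and 187 CPM in MMPhigh (1.27 ± 0.18, adjusted p = 3.4e-04). Mean log2 folds of megakaryocytes over other cells were -0.48 for Jun, -1.72 for Zfhx4 and -1.54 for Zfhx3. They were 0.38 for Ube2c, 0.42 for Ccnb1, 3.11 for Sardh and 1.61 for Ppif. In macrophages Jun, Zfhx4, Zfhx3, Ube2c and Ccnb1 rose as well, by 1.40, 1.32, 0.92, 1.05 and 0.66. Except for Jun, the difference between the cell types did not pass the threshold in the edgeR test given below (adjusted p from 0.053 to 0.098). For Zfhx4, Zfhx3, Ube2c and Ccnb1 this difference was 0.54, 0.43, 0.44 and 0.49 on the log2 scale, with the larger rise in megakaryocytes.

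The other named increases were Lgmn, Ctss, Tubb2b, Slc8a1 and Mrps23. Their mean log2 folds of megakaryocytes over other cells were -1.02, -1.20, -1.63, -1.53 and 0.63. In macrophages these genes rose as well, by 1.35, 0.94, 2.45, 0.43 and 0.71. Mrps23, encoding a mitochondrial ribosomal protein, stood at 56.6 and 66.2 CPM in MMPlow and 122 and 119 CPM in MMPhigh (1.11 ± 0.16, adjusted p = 4.6e-04). Lgmn and Ctss encode lysosomal proteases of macrophages, and Lgmn stood at 25.8 and 25.5 CPM in MMPlow and 70.4 and 68.5 CPM in MMPhigh (1.57 ± 0.17, adjusted p = 2.7e-05) and Ctss at 21.7 and 21.7 CPM in MMPlow and 71.3 and 55.2 CPM in MMPhigh (1.64 ± 0.19, adjusted p = 6.4e-05). Macrophage genes at 10 or more UMIs per 10000 were found in 23.8% and 22.5% of MMPhigh members and in 1.65% and 1.31% of MMPlow members. Without barcodes at 10 or more UMIs per 10000 of another cell type's genes, the fold change was -0.21 for Lgmn and -0.15 for Ctss, with adjusted p of 0.71 and 0.80. Slc8a1, a sodium-calcium exchanger gene, lost its call in that setting too (adjusted p = 0.41).

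**Figure D4:**
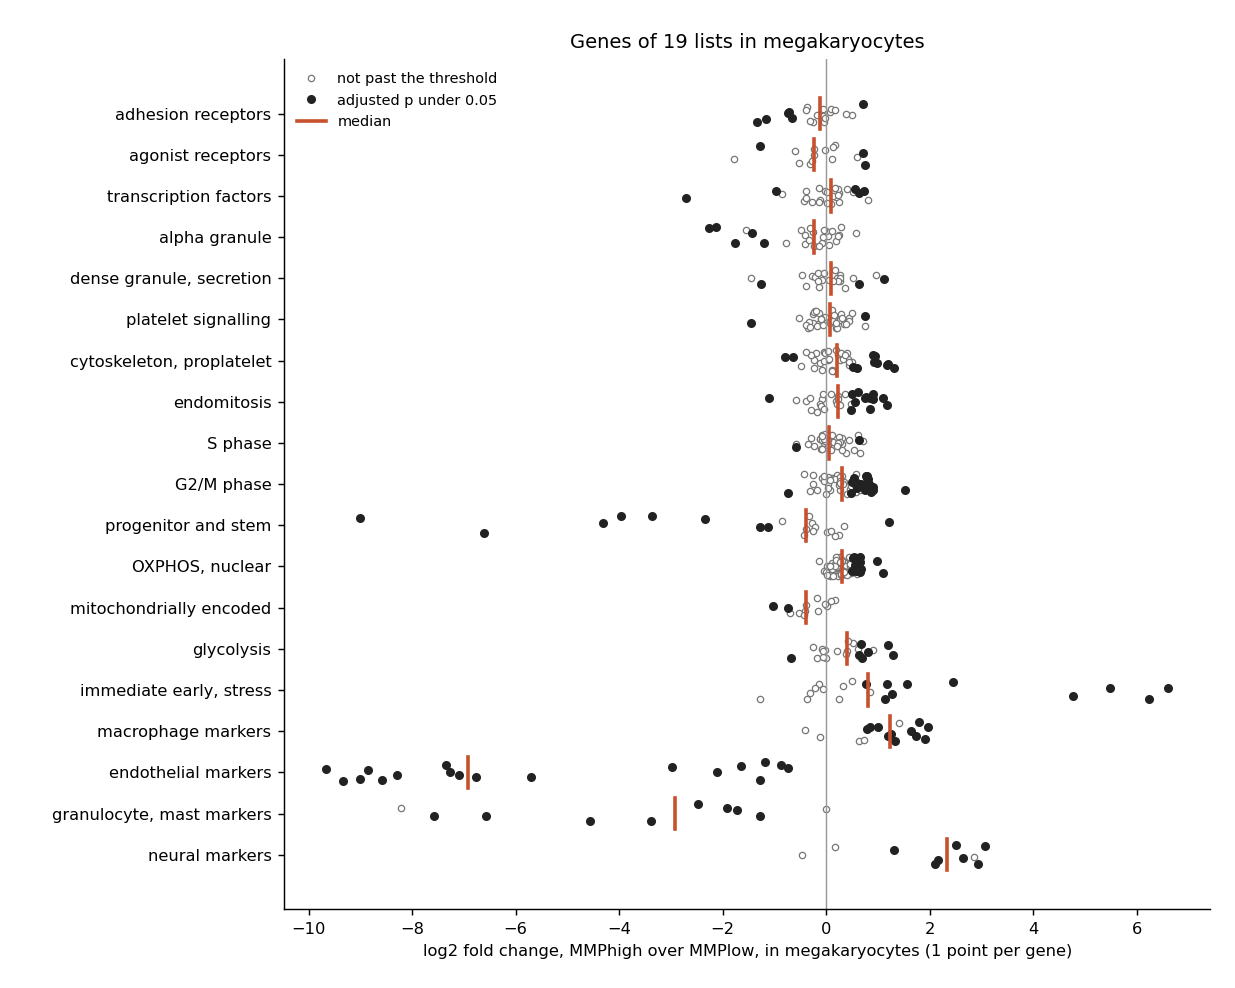
Log2 fold change of MMPhigh over MMPlow in megakaryocytes (x axis) for every tested gene of 19 lists (rows), with filled points for adjusted p under 0.05 and a bar at the median of the list. The megakaryocyte lists at the top centre near 0, the endothelial markers lie to the left and the macrophage and immediate early lists to the right.

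Of 20 adhesion receptor genes, 1 rose (Fcer1g) and 5 fell (Pecam1, Itga2, Esam, Itgb1 and Cd226), with a median log2 fold change of -0.12 against -0.01 over all genes tested. That is 5% higher and 25% lower, against 7.25% and 9.11% of all genes, shares that serve as the background of every list that follows. With doublets left out none of the 20 rose and 5 fell. In cells with at least 5000 UMIs and 2000 genes none of 18 rose and 4 fell. The number that fell was 2 without MMPlow 1 or without MMPhigh 2, where the median was 0.08, 3 without MMPlow 2 or in thinned cells, and 7 without MMPhigh 1. Pecam1, which encodes CD31, the protein of the sort gate, stood at 172 and 148 CPM in MMPlow and 72.2 and 47.9 CPM in MMPhigh (-1.34 ± 0.20, adjusted p = 5.7e-04). Itga2, the collagen-binding integrin chain, stood at 67.9 and 63.5 CPM in MMPlow and 33.8 and 23.2 CPM in MMPhigh (-1.17 ± 0.20, adjusted p = 0.0015). Itgb1, its beta chain, stood at 748 and 718 CPM in MMPlow and 435 and 369 CPM in MMPhigh (-0.73 ± 0.17, adjusted p = 0.011), and Cd226, an adhesion receptor that led in the members over other cells, at 156 and 159 CPM in MMPlow and 103 and 81.1 CPM in MMPhigh (-0.66 ± 0.17, adjusted p = 0.016). In each of these 4 genes both MMPhigh libraries lay below both MMPlow libraries. When single libraries were left out, the adjusted p was 0.13 for Esam, 0.086 for Itgb1, 0.12 for Cd226 and 0.40 for Fcer1g without MMPlow 1. It was 0.069 for Esam and 0.11 for Cd226 without MMPlow 2. It was 0.051 for Fcer1g without MMPhigh 1. It was 0.13 for Esam, 0.081 for Itgb1 and 0.18 for Cd226 without MMPhigh 2. Cd9 and Cd47, a tetraspanin and an integrin-associated protein and the other genes of high level in the list, had fold changes of 0.38 ± 0.18, adjusted p = 0.18 and -0.03 ± 0.17, adjusted p = 0.93.

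Among receptors for agonists and growth factors, F2rl2 rose and Kit fell. F2rl2, a thrombin receptor that acts as a cofactor in mouse platelets, stood at 166 and 174 CPM in MMPlow and 299.9 and 213 CPM in MMPhigh (0.72 ± 0.18, adjusted p = 0.017). Kit stood at 40.1 and 38.6 CPM in MMPlow and 11.9 and 15.9 CPM in MMPhigh (-1.28 ± 0.22, adjusted p = 0.0018). The MMPhigh libraries lay above the MMPlow libraries for F2rl2 and below them for Kit. When single libraries were left out, the adjusted p was 0.21 for F2rl2 without MMPlow 1. It was 0.081 for F2rl2 without MMPlow 2. It was 0.068 for F2rl2 without MMPhigh 1. F2r and P2rx1, encoding the thrombin receptor PAR1 and an ATP-gated channel, had fold changes of 0.13 ± 0.16, adjusted p = 0.65 and 0.10 ± 0.20, adjusted p = 0.78.

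Of 27 transcription factor genes of the lineage, 3 (11.1%) rose and 2 (7.41%) fell, with a median of 0.08, near the 7.25% and 9.11% of all genes. None rose without MMPlow 2, and 1 rose without MMPlow 1 or in thinned cells, where the median was -0.22. Zfpm1, encoding the GATA1 cofactor FOG1, stood at 148 and 112 CPM in MMPlow and 195 and 196 CPM in MMPhigh (0.73 ± 0.16, adjusted p = 0.0086). Gfi1b, a repressor needed for platelet production, stood at 66.6 and 69.02 CPM in MMPlow and 95.1 and 95.5 CPM in MMPhigh (0.63 ± 0.15, adjusted p = 0.014), and Lyl1, a basic helix-loop-helix factor, at 51.3 and 47.8 CPM in MMPlow and 72.2 and 62.7 CPM in MMPhigh (0.56 ± 0.16, adjusted p = 0.031). Erg, an ETS factor of megakaryocytes and endothelium, stood at 41.6 and 34.8 CPM in MMPlow and 4.57 and 5.54 CPM in MMPhigh (-2.70 ± 0.28, adjusted p = 2.3e-05), and Zfp521 at 111 and 94.3 CPM in MMPlow and 37.5 and 53.4 CPM in MMPhigh (-0.96 ± 0.18, adjusted p = 0.0029). Runx1, Fli1 and Mef2c, of high summed level, did not pass, with adjusted p from 0.39 to 0.93. With a library left out, the adjusted p was 0.20 for Gfi1b, 0.24 for Lyl1 and 0.064 for Zfp521 without MMPlow 1. It was 0.12 for Zfpm1, 0.078 for Gfi1b and 0.20 for Lyl1 without MMPlow 2.

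Of 27 alpha granule genes none rose and 5 (18.5%) fell, with a median of -0.23, and the 5 were Sparc, Fn1, Vegfc, Cxcl12 and Ecm1. The number that fell was 8 without MMPhigh 1 and 3 without MMPlow 1, and with cells thinned to 2000 UMIs 7 of 23 fell and 1 rose. Sparc, a matrix glycoprotein gene, stood at 199 and 176 CPM in MMPlow and 43.9 and 30.5 CPM in MMPhigh (-2.27 ± 0.19, adjusted p = 3.3e-06), and Fn1, encoding fibronectin, at 77.3 and 62.4 CPM in MMPlow and 8.23 and 16.9 CPM in MMPhigh (-2.13 ± 0.24, adjusted p = 5.7e-05). Both stood lower in megakaryocytes than in other cells, with mean log2 folds of -1.46 and -1.41. Thbs1 had 0.03 ± 0.20, adjusted p = 0.93, Tgfb1, encoding a growth factor stored in these granules, 0.28 ± 0.16, adjusted p = 0.27, and Angpt1, an angiogenic ligand gene, -0.34 ± 0.16, adjusted p = 0.18. Vwf, encoding von Willebrand factor, stood at 348 and 273 CPM in MMPlow and 276 and 201 CPM in MMPhigh (-0.25 ± 0.19, adjusted p = 0.41). None of these 4 passed. With a library left out, the adjusted p was 0.24 for Cxcl12 and 0.43 for Ecm1 without MMPlow 1. It was 0.23 for Cxcl12 without MMPlow 2. It was 0.24 for Cxcl12 without MMPhigh 2. Apoe did not pass either (0.58 ± 0.20, adjusted p = 0.070) and turned to -0.56 (adjusted p = 0.047) without mixed barcodes.

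Of 24 genes of dense granules and secretion, Rab32 and Stxbp2 rose (8.33%) and Slc18a2 fell (4.17%), with a median of 0.09, near or under the 7.25% and 9.11% of all genes. Rab32, a small GTPase of lysosome-related organelles, stood at 17.9 and 22.3 CPM in MMPlow and 48.5 and 35.3 CPM in MMPhigh (1.12 ± 0.23, adjusted p = 0.0052). Slc18a2, which encodes the vesicular monoamine transporter that loads serotonin, stood at 33.9 and 23.1 CPM in MMPlow and 10.1 and 10.8 CPM in MMPhigh (-1.27 ± 0.28, adjusted p = 0.0078). Without single libraries the adjusted p was 0.13 for Rab32, 0.23 for Slc18a2 and 0.19 for Stxbp2 without MMPlow 1. It was 0.28 for Stxbp2 without MMPlow 2. It was 0.52 for Stxbp2 without MMPhigh 2. Platelet signalling gave 1 gene in each direction among 38 (2.63% each, under the shares of all genes), with a median of 0.08, and with cells thinned to 2000 UMIs none rose and 6 fell at a median of -0.43. Without MMPhigh 1 3 rose and 3 fell, at a median of -0.03. The regulator of G protein signalling Rgs10 stood at 310.5 and 398 CPM in MMPlow and 609.8 and 483 CPM in MMPhigh (0.76 ± 0.19, adjusted p = 0.017) and the G protein gamma subunit gene Gng11 at 194 and 213 CPM in MMPlow and 75.9 and 61.7 CPM in MMPhigh (-1.46 ± 0.17, adjusted p = 7.0e-05). Rap1b, Tln1, Plek and Prkar2b, the genes of the highest level there, did not pass, with adjusted p between 0.13 and 0.58. When single libraries were left out, the adjusted p was 0.25 for Rgs10 without MMPlow 1.

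Of 40 genes of the cytoskeleton and proplatelets 9 (22.5%) rose and 2 (5%) fell, and the median was 0.21. Tuba8 and Tuba4a, alpha tubulin genes, stood at 24.7 and 34.8 CPM in MMPlow and 63.99 and 70.1 CPM in MMPhigh (1.30 ± 0.19, adjusted p = 5.8e-04), and at 227 and 274 CPM in MMPlow and 518 and 349 CPM in MMPhigh (0.92 ± 0.21, adjusted p = 0.011). Zyx, encoding the focal adhesion protein zyxin, stood at 266 and 289 CPM in MMPlow and 463 and 484 CPM in MMPhigh (0.91 ± 0.16, adjusted p = 0.0021). These 3 were also above other cells in the members, by 2.19, 2.86 and 2.56 on the log2 scale. Actb, encoding beta-actin, stood at 4182 and 4866 CPM in MMPlow and 10405 and 8300.5 CPM in MMPhigh (1.19 ± 0.21, adjusted p = 0.0022), and Cfl1 and Pfn1, encoding the actin regulators cofilin and profilin, had 0.97 ± 0.17, adjusted p = 0.0022 and 1.18 ± 0.21, adjusted p = 0.0026. Actb, Cfl1 and Pfn1 rose in macrophages as well, by 1.47, 1.08 and 0.98. Without MMPlow 1, 4 genes of the list rose, and without MMPhigh 1, 5 fell. When single libraries were left out, the adjusted p was 0.19 for Tuba4a and 0.055 for Zyx without MMPlow 1. In cells with at least 5000 UMIs 2 rose, and with cells thinned to 2000 UMIs 5 rose at a median of -0.09. Tmsb4x, Wdr1 and Myl12a were the other 3 that rose, and Cd2ap and Sptbn1 the 2 that fell. With a library left out, the adjusted p was 0.14 for Tmsb4x, 0.22 for Wdr1, 0.42 for Myl12a, 0.12 for Cd2ap and 0.14 for Sptbn1 without MMPlow 1. It was 0.19 for Wdr1 and 0.081 for Sptbn1 without MMPlow 2. It was 0.063 for Tmsb4x and 0.057 for Wdr1 without MMPhigh 1. It was 0.075 for Myl12a and 0.14 for Sptbn1 without MMPhigh 2.

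Of 52 G2/M genes 17 (32.7%) rose and 1 fell (G2e3), with a median of 0.30, and of 31 genes of endomitosis 12 (38.7%) rose and 1 fell, with a median of 0.24. Cdc20, an activator of the anaphase-promoting complex, stood at 62.8 and 73.5 CPM in MMPlow and 115 and 118 CPM in MMPhigh (0.91 ± 0.16, adjusted p = 0.0019), and Cdk1, the mitotic kinase, at 78.8 and 91.8 CPM in MMPlow and 154 and 138 CPM in MMPhigh (0.90 ± 0.16, adjusted p = 0.0022). Ccnd3, the D-type cyclin used in megakaryocyte endomitosis, stood at 163 and 166 CPM in MMPlow and 252 and 279 CPM in MMPhigh (0.84 ± 0.15, adjusted p = 0.0026), while Ccnd1 stood at 56.6 and 45.7 CPM in MMPlow and 28.3 and 18.4 CPM in MMPhigh (-1.11 ± 0.22, adjusted p = 0.0047). Of 38 S phase genes 1 (2.63%, under the shares of all genes) rose, Rfc2, and 1 fell, Gins2, with a median of 0.05. Without MMPhigh 1 10 rose and 1 fell at a median of 0.24, and without MMPhigh 2 none rose and 2 fell at a median of -0.22, so the count rests on single libraries. The summed G2/M level was 7111 ± 593 CPM (SD, n = 2) for MMPlow, against 8783 ± 116 CPM (SD, n = 2) for MMPhigh (exact permutation p = 0.333, the smallest possible). With cells thinned to 2000 UMIs the G2/M sums overlapped, at 6557 and 6966 CPM in MMPlow and 6740 and 7440 CPM in MMPhigh (log2 difference 0.07, exact permutation p = 0.667). For the S phase list it was 3463 ± 233 CPM in MMPlow and 3299 ± 736 CPM in MMPhigh (exact permutation p = 1), and MMPhigh 1 at 2778 CPM and MMPhigh 2 at 3819 CPM lay on both sides of MMPlow. The log2 difference of the S phase sums was -0.07 on this scale and 0.07 with totals scaled by TMM, the normalization of the fit, so its sign depends on the scaling.

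Without MMPlow 1, where the genes that rose numbered 76 over all genes in place of 916, 1 of 52 G2/M genes and 1 of 31 endomitosis genes rose, at medians of 0.21 and 0.24. With a library left out, the adjusted p was 0.067 for Cdc20, 0.070 for Cdk1, 0.061 for Ccnd3, 0.15 for Ccnd1, 0.17 for G2e3, 0.32 for Rfc2 and 0.30 for Gins2 without MMPlow 1. It was 0.11 for G2e3 and 0.093 for Gins2 without MMPlow 2. It was 0.091 for Ccnd1, 0.22 for G2e3, 0.11 for Rfc2 and 0.24 for Gins2 without MMPhigh 2. With cells thinned to 2000 UMIs 5 G2/M genes rose at a median of 0.11, and in cells with at least 5000 UMIs 3 rose at a median of 0.30. Ube2c passed in all 16 alternatives, and Ccnb1 in 15, all but the thinned cells, where its fold change was 0.24 (adjusted p = 0.72) in place of 1.18.

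Of 21 tested progenitor and stem cell genes (24 were in the files and 25 in the list) 8 (38.1%) fell and 1 rose, with a median of -0.40. Without MMPlow 1 3 fell and without MMPlow 2 4 fell, as with cells thinned to 2000 UMIs, each at a median from -0.54 to -0.41. Mecom, a stem cell and endothelial transcription factor gene, stood at 147 and 123 CPM in MMPlow and 11.9 and 11.8 CPM in MMPhigh (-3.36 ± 0.20, adjusted p = 1.2e-07), and Cd34 at 87.3 and 91.97 CPM in MMPlow and 12.8 and 2.77 CPM in MMPhigh (-3.96 ± 0.46, adjusted p = 0.0029). Sox17, an endothelial factor of the haemogenic lineage, had 175 UMIs in MMPlow and 0 in MMPhigh, at least 28.8-fold lower with a floor of 3 UMIs over the MMPhigh members. Kit, Procr, Cd27, Hlf and Spn were the other genes that fell, and Hoxa7 rose. The adjusted p was 0.12 for Cd34, 0.088 for Procr, 0.24 for Cd27, 0.12 for Hlf, 0.23 for Spn and 0.22 for Hoxa7 without MMPlow 1. It was 0.075 for Cd34, 0.073 for Procr and 0.25 for Spn without MMPlow 2. It was 0.063 for Cd27, 0.15 for Hlf and 0.16 for Spn without MMPhigh 2. Meis1, Vwf and Adgrg1, stem cell genes that megakaryocytes also express, did not pass, with adjusted p of 0.79, 0.41 and 0.33. The endothelial sums given above moved with these falls, and their part was not tested.

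Of the 13 genes of the mitochondrial genome, none rose and 2 fell, with a median of -0.40. They were mt-Nd6 at 104 and 95.1 CPM in MMPlow and 49.4 and 41.1 CPM in MMPhigh (-1.03 ± 0.17, adjusted p = 0.0012) and mt-Nd5 at 1093 and 931 CPM in MMPlow and 609.8 and 485 CPM in MMPhigh (-0.75 ± 0.18, adjusted p = 0.014), both subunits of complex I. Among cells with a mitochondrial share under 10%, 7 of the 13 fell at a median of -0.69, and in cells with at least 5000 UMIs 1 fell at a median of 0.017. The most abundant, mt-Atp6, mt-Co3, mt-Co2 and mt-Co1, had adjusted p from 0.61 to 0.99. Of 76 nuclear genes of oxidative phosphorylation 16 (21.1%) rose and none fell, with a median of 0.31. Ndufs8, a complex I subunit, stood at 53.6 and 64.6 CPM in MMPlow and 122 and 111 CPM in MMPhigh (1.10 ± 0.17, adjusted p = 6.2e-04), and Cycs, encoding cytochrome c, at 147 and 195 CPM in MMPlow and 277 and 331 CPM in MMPhigh (0.97 ± 0.18, adjusted p = 0.0029). Macrophages showed log2 fold changes of 1.10 and 0.63 for these genes. The adjusted p was 0.15 for mt-Nd5 and 0.085 for Cycs without MMPlow 1. It was 0.12 for mt-Nd5 without MMPhigh 2. Without MMPlow 1, 1 nuclear gene rose, and in cells with at least 5000 UMIs none of 76 rose, at a median of 0.07. Mitochondrial dynamics and import gave 4 genes that rose among 33 (Vdac2, Vdac3, Fis1 and Mff), 12.1% against 7.25% of all genes, and none that fell. None of the 33 rose without MMPlow 1, without MMPlow 2, with doublets left out or in cells with at least 5000 UMIs.

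In glycolysis 6 of 21 genes (28.6%) rose and 1 fell, with a median of 0.40. The list summed to 4194 and 5065 CPM in MMPlow and 5803 and 7244 CPM in MMPhigh in megakaryocytes. Its sum was also higher in MMPhigh in macrophages, at 4054 and 4490 CPM in MMPlow and 5936 and 6754 CPM in MMPhigh. The same held in all other filtered cells, at 3788.5 and 4094 CPM in MMPlow and 5078 and 5638.5 CPM in MMPhigh. Gapdh stood at 541 and 784 CPM in MMPlow and 1285 and 1671 CPM in MMPhigh (1.29 ± 0.22, adjusted p = 0.0020) and was called in all 16 alternatives. Pgam1 and Ldha, encoding phosphoglycerate mutase and lactate dehydrogenase, had 0.80 ± 0.19, adjusted p = 0.011 and 0.67 ± 0.20, adjusted p = 0.040, and the glucose transporter gene Slc2a1 fell (-0.68 ± 0.17, adjusted p = 0.015). Aldoa, Tpi1 and Ldhb were the others that rose. Without MMPlow 1, 1 gene of the list rose and none fell. The adjusted p was 0.20 for Pgam1, 0.39 for Ldha, 0.37 for Aldoa, 0.27 for Tpi1, 0.14 for Ldhb, 0.22 for Slc2a1 and 0.080 for Abcg2 without MMPlow 1. It was 0.059 for Slc2a1 and 0.12 for Abcg2 without MMPlow 2. It was 0.21 for Ldha, 0.21 for Aldoa, 0.078 for Tpi1 and 0.12 for Slc2a1 without MMPhigh 2. The efflux pump gene Abcg2, whose product exports dyes, stood at 132 and 142 CPM in MMPlow and 70.4 and 84.9 CPM in MMPhigh (-0.65 ± 0.16, adjusted p = 0.014).

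Of 20 immediate early and stress genes 10 rose and none fell, with a median of 0.81, and 7 rose without MMPlow 1. Fosb had 2 UMIs in all MMPlow members and 108 in MMPhigh, a ratio of 109 (95% counting interval 29.5 to 913). The heat shock gene Hspa1a had 2 and 70 UMIs, a ratio of 70.8 (18.9 to 596), and Fos 3 and 76 UMIs, a ratio of 51.2 (16.9 to 254). Btg2, an antiproliferative early gene, stood at 20.7 and 24.9 CPM in MMPlow and 53.9 and 48.6 CPM in MMPhigh (1.27 ± 0.19, adjusted p = 6.2e-04). In macrophages Fosb and Hspa1a had fold changes of 6.80 and 5.38. The nuclear RNAs Malat1 and Neat1 fell in megakaryocytes, with Malat1 at 13045 and 10994 CPM in MMPlow and 6885 and 5381 CPM in MMPhigh (-0.83 ± 0.21, adjusted p = 0.018) and Neat1 at 154 and 119.5 CPM in MMPlow and 56.7 and 26.5 CPM in MMPhigh (-1.74 ± 0.34, adjusted p = 0.022). When single libraries were left out, the adjusted p was 0.12 for Malat1 and 0.23 for Neat1 without MMPlow 1. It was 0.10 for Neat1 without MMPlow 2. It was 0.27 for Malat1 without MMPhigh 2.

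All 18 endothelial markers fell, with a fitted median of -6.92, or -4.53 with the 5 genes at 0 UMIs set to the bound of the floor, and 8 of 10 granulocyte and mast cell markers fell, with a median of -2.93. Of 16 macrophage markers 11 rose and none fell, with a median of 1.23, and 6 rose without MMPlow 1, without MMPlow 2 or in cells with at least 5000 UMIs. Of 10 neural markers 7 rose and none fell, with a median of 2.33. In cells with at least 5000 UMIs and 2000 genes none of 8 rose, at a median of 2.29, and with doublets left out 4 of 10 rose. Without mixed barcodes, which were chosen by endothelial, macrophage and erythroid genes, 14 of 17 endothelial markers still fell, while none of 15 macrophage markers rose and 4 fell. C1qa, C1qb, C1qc and Csf1r, used to choose those barcodes, are in the macrophage list. They marked 23.8% and 22.5% of MMPhigh members against 1.65% and 1.31% of MMPlow members. The loss of rises in that list is therefore partly fixed by leaving these barcodes out. In that setting the 16 immune genes, of which 5 rose (Ctss, Spi1, Coro1a, Ifitm2 and Cd53) and 1 fell (Ccr2) over all members, had 0 that rose and 6 that fell of 15 tested. Spi1, encoding the myeloid factor PU.1, stood at 31.9 and 33.6 CPM in MMPlow and 49.4 and 49.4 CPM in MMPhigh (0.73 ± 0.17, adjusted p = 0.012) and at a fold change of -0.27 without mixed barcodes. Without single libraries the adjusted p was 0.22 for Spi1, 0.23 for Coro1a, 0.30 for Ifitm2, 0.33 for Cd53, 0.21 for Ccr2 and 0.14 for Stmn2 without MMPlow 1. It was 0.083 for Spi1, 0.060 for Coro1a, 0.12 for Ifitm2, 0.31 for Cd53, 0.058 for Ccr2 and 0.053 for Stmn2 without MMPlow 2. It was 0.075 for Ifitm2 without MMPhigh 1. It was 0.26 for Cd53 without MMPhigh 2. Neural markers gave 1 gene that rose without either MMPlow library, and Stmn2, the highest, stood at 32.4 and 36.1 CPM in MMPlow and 52.1 and 94.2 CPM in MMPhigh (1.31 ± 0.23, adjusted p = 0.0051).

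Fetal and globin genes were split. Of 16 fetal genes, the paternally or maternally imprinted Plagl1, Mest and H19 fell and Dlk1 and Meg3 rose, with a median of -0.23. In cells thinned to 2000 UMIs none rose and 5 fell at a median of -0.83, and Meg3 turned to -0.81 (adjusted p = 0.38). Without MMPhigh 1 6 fell, without MMPhigh 2 5 fell and 1 rose, and without MMPlow 1 none rose. Mest stood at 393 and 368 CPM in MMPlow and 119 and 81.1 CPM in MMPhigh (-1.83 ± 0.19, adjusted p = 3.1e-05) and H19 at 407 and 315 CPM in MMPlow and 102 and 49.9 CPM in MMPhigh (-2.20 ± 0.35, adjusted p = 0.011). With a library left out, the adjusted p was 0.18 for H19, 0.20 for Dlk1 and 0.12 for Meg3 without MMPlow 1. It was 0.081 for H19 and 0.19 for Meg3 without MMPlow 2. It was 0.24 for Meg3 without MMPhigh 2. Of 20 erythroid genes 4 rose (Gfi1b, Hbb-bt, Hemgn and Car2) and 5 fell, with a median of 0.07, or 20% and 25% against 7.25% and 9.11% of all genes. The counts were 0 and 2 without MMPlow 1, 0 and 3 without MMPlow 2, 8 and 5 without MMPhigh 1 and 1 and 4 without MMPhigh 2. Hbb-bt, an adult globin gene, stood at 40.6 and 46.7 CPM in MMPlow and 58.5 and 64.01 CPM in MMPhigh (0.63 ± 0.17, adjusted p = 0.020), Hemgn, a gene of erythroid and megakaryocyte progenitors, had 0.80 ± 0.22, adjusted p = 0.025, and Car2, encoding carbonic anhydrase, 0.48 ± 0.15, adjusted p = 0.047. The embryonic globin genes Hbb-y and Hba-x stood at 68.4 and 56.99 CPM in MMPlow and 18.3 and 12.6 CPM in MMPhigh (-1.995 ± 0.22, adjusted p = 4.0e-05), and at 37.8 and 30.1 CPM in MMPlow and 10.97 and 6.55 CPM in MMPhigh (-1.98 ± 0.29, adjusted p = 5.2e-04). Hbb-bh1 stood at 109 and 167 CPM in MMPlow and 47.5 and 279 CPM in MMPhigh, and its fold change turned from 0.47 to -1.40 (adjusted p = 1.4e-06) without MMPhigh 2. A single library therefore set the direction of that gene.

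Macrophages of the same libraries, cells outside the rule with at least 3 of 10 macrophage genes and 10 UMIs of them per 10000, gave a comparison class that went through the same sort. There were 1529, 1871, 1496 and 1010 of them in MMPlow 1, MMPlow 2, MMPhigh 1 and MMPhigh 2. The transcripts of this class differed between the fractions. In thinned cells C1qb, of the 10 macrophage genes, was detected in 57.7%, 59.9%, 83.6% and 89.5% of macrophages in the same order. The endothelial gene Emcn was detected in 30.2%, 28.5%, 0.468% and 0%. The part of these shifts in the differences between the cell types was not tested. Of 911 genes that rose in megakaryocytes and were tested in macrophages 724 (79.5%) also rose there, and of 1129 that fell 931 (82.5%) also fell. Of all 12478 genes tested in both cell types, 2409 (19.3%) rose and 2349 (18.8%) fell in macrophages, so the shared genes were 30.1% and 39.6% of the macrophage calls. The 2 comparisons hold different cells of the same libraries, so they share droplet runs and sort. A test of the difference between the cell types, in a model over both kinds of sum, called 737 of 14590 genes (5.05%), 299 (2.05%) with the more positive fold change in megakaryocytes and 438 (3.0%) with the more negative. That count was 352 without MMPlow 1, 453 without MMPlow 2 and 1415 without MMPhigh 1. Of the genes that rose in megakaryocytes 62 differed from macrophages, and of those that fell 213.

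The 6 genes named for a more positive change in megakaryocytes than in macrophages fell to 6.33 CPM or less in MMPhigh macrophages. Kdr, encoding the vascular endothelial growth factor receptor 2, stood at 196 and 169.9 CPM in MMPlow and 76.8 and 62.2 CPM in MMPhigh in megakaryocytes and at 158 and 132 CPM in MMPlow and 2.55 and 2.66 CPM in MMPhigh in macrophages (difference 4.23 ± 0.18, adjusted p = 1.2e-13). Esam, an adhesion molecule of endothelium and platelets, stood at 89.8 and 84.8 CPM in MMPlow and 53.9 and 43.3 CPM in MMPhigh in megakaryocytes and at 44.3 and 39 CPM in MMPlow and 1.05 and 0.921 CPM in MMPhigh in macrophages (difference 4.42 ± 0.24, adjusted p = 2.6e-12). Timp3, a metalloproteinase inhibitor gene, stood at 503 and 478 CPM in MMPlow and 589 and 511 CPM in MMPhigh and at 55.2 and 55.6 CPM in MMPlow and 5.01 and 5.81 CPM in MMPhigh (difference 3.38 ± 0.16, adjusted p = 3.0e-13). Trpc6 stood at 26.5 and 21.8 CPM in MMPlow and 1.84 and 1.03 CPM in MMPhigh in macrophages (difference 3.73 ± 0.20, adjusted p = 2.6e-12), against the megakaryocyte values given above. Kdr and Esam stood at 43.3 CPM or more in MMPhigh megakaryocytes of each library, unlike Emcn and Cdh5. The fold change of Esam in megakaryocytes turned to 0.19 in cells thinned to 2000 UMIs (adjusted p = 0.76), and Esam was called in 10 of 16 alternatives. Gng11 and the GTPase gene Rhoj completed the 6, with differences of 3.29 and 3.58.

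Some other genes fell in macrophages and rose in megakaryocytes. F2rl2 stood at 12.99 and 8.11 CPM in MMPlow and 2.11 and 1.03 CPM in MMPhigh in macrophages (difference 3.30 ± 0.27, adjusted p = 1.8e-07) and Tuba8 at 2.73 and 2.67 CPM in MMPlow and 0.615 and 0.496 CPM in MMPhigh (difference 3.39 ± 0.42, adjusted p = 5.4e-06). Sardh stood at 4.61 and 6.11 CPM in MMPlow and 1.49 and 0.602 CPM in MMPhigh in macrophages (difference 3.55 ± 0.33, adjusted p = 2.8e-07). Ppif, at 23.6 and 29.4 CPM in MMPlow and 22.1 and 27.9 CPM in MMPhigh in macrophages, differed as well (difference 1.11 ± 0.16, adjusted p = 3.7e-05) and did not pass there on its own, with a small positive fold change. These 4 genes stood at 29.4 CPM or less in macrophages of each library. F2rl2 was also chosen for its level in members over other cells, which bears on its difference. For Zfpm1 and Tuba4a, whose folds were negative in macrophages, and for Jun, Zyx and Ccnd3, whose folds were positive in both, the difference was also positive (1.51, 1.74, 1.01, 0.66 and 0.65), and without MMPlow 1 it was not called for Zyx and Ccnd3 (adjusted p = 0.51 and 0.21).

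The 6 genes named for a more negative change in megakaryocytes were those with the smallest p-values. Of the genes named above among those that fell, Stfa1, Ecscr and Ramp2 differed as well (-4.26, -3.50 and -2.34), as did Zfpm2 and Ptprm (-1.21 and -1.17). Of these 5, only Stfa1 kept the call without MMPhigh 2, and Ptprm also lost it without MMPlow 2. Vim, encoding vimentin, stood at 365 and 379 CPM in MMPlow and 69.5 and 62.5 CPM in MMPhigh in megakaryocytes and at 470.3 and 545 CPM in MMPlow and 307 and 301 CPM in MMPhigh in macrophages (difference -1.87 ± 0.15, adjusted p = 2.4e-09). Sparc stood at 214 and 193 CPM in MMPlow and 131 and 125 CPM in MMPhigh in macrophages (difference -1.84 ± 0.16, adjusted p = 2.0e-08), and Rasgrp3, a guanine nucleotide exchange factor gene, at 63.02 and 53.3 CPM in MMPlow and 5.49 and 7.56 CPM in MMPhigh in megakaryocytes and 105 and 95.7 CPM in MMPlow and 84.8 and 85.2 CPM in MMPhigh in macrophages (difference -2.88 ± 0.22, adjusted p = 2.4e-09). In megakaryocytes these 3 were at 70 CPM or less in both MMPhigh libraries. Ldlrad4, an inhibitor of transforming growth factor signalling, had a difference of -2.42. Ank3 and Tmem163 rose in macrophages and did not pass in megakaryocytes, with Ank3 at 620.2 and 517 CPM in MMPlow and 545 and 615 CPM in MMPhigh in megakaryocytes and 35.9 and 29.1 CPM in MMPlow and 123 and 141 CPM in MMPhigh in macrophages (difference -2.09 ± 0.14, adjusted p = 7.9e-11). Tmem163, a zinc transporter gene, stood at 162 and 122 CPM in MMPlow and 153 and 173 CPM in MMPhigh in megakaryocytes and at 5.81 and 4.11 CPM in MMPlow and 23.98 and 24.5 CPM in MMPhigh in macrophages (difference -2.17 ± 0.19, adjusted p = 2.3e-08).

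**Figure D5:**
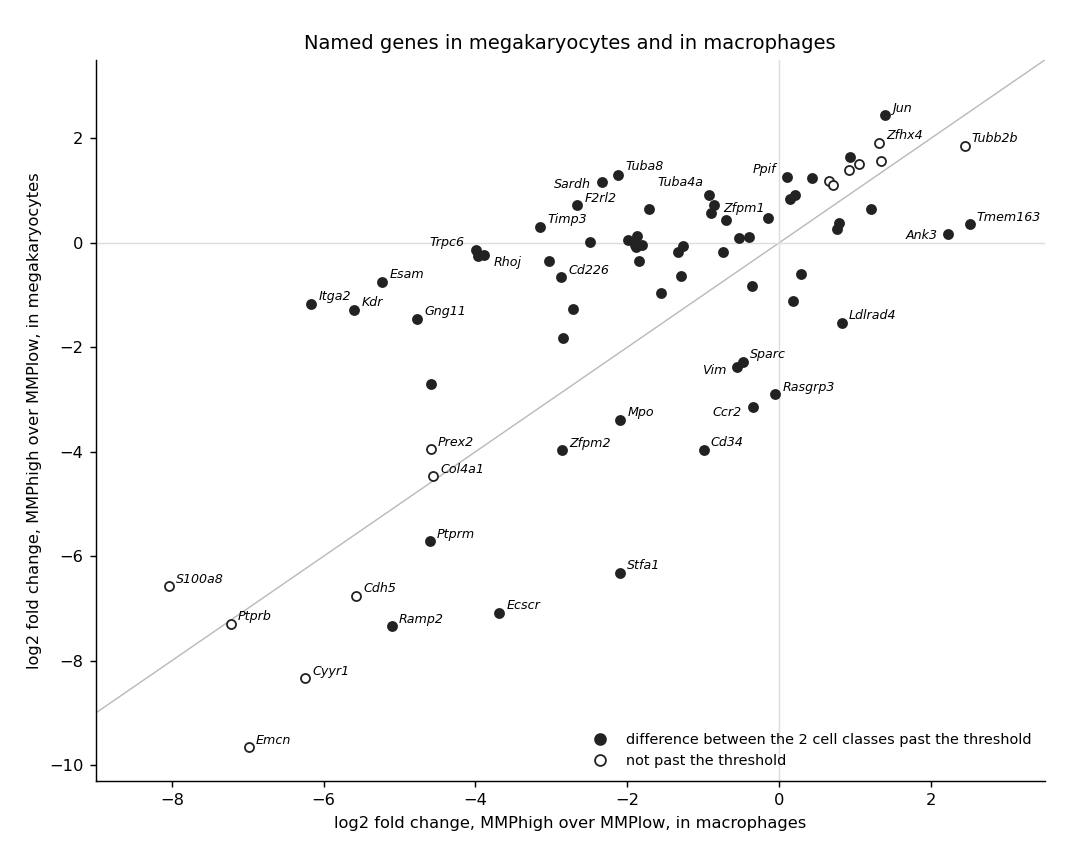
Log2 fold change of MMPhigh over MMPlow in megakaryocytes (y axis) against that in macrophages (x axis) for 76 named genes, with filled points where the difference between the cell types has an adjusted p under 0.05 and a diagonal of equal change. Genes such as Kdr, Esam, Itga2 and Timp3 lie far above the diagonal, Vim, Sparc and Rasgrp3 below it, and points without a label are further named genes with a difference past the threshold or among the most changed.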

How the data were processed

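AGM cells, sorted as CD31-positive per the labels, were measured in 4 droplet libraries. The authors deposited UMI counts per gene and barcode for 32285 genes. Cell Ranger 7.0.1 is named per the file headers and 2.1.1 per the submitters' processing notes, which also name the build mm10, so the version that made the counts is not settled here. The members and the gene lists were chosen with earlier results of these data known. Cells passed 2000 UMIs, 1000 genes and a mitochondrial share under 25%, UMIs of members were summed per library, and CPM was computed from these sums. The sums were tested with edgeR 4.0.16 in R 4.3.3 (TMM, quasi-likelihood, Benjamini-Hochberg adjustment, 0.05), a procedure tested on simulated data. Single values were tested with exact two-sided permutation tests in scipy 1.17.1, shares have exact Clopper-Pearson 95% intervals, and a count of 0 allows up to 3 UMIs. UMIs count molecules, and intervals and floors cover counting error only.

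Named genes were the rule genes and given markers; in each direction the 12 genes of smallest p among called genes without overlap between fractions and at 20 CPM or more on average; in each list the 4 highest and up to 6 called genes; the 20 leading genes; and the 6 genes of smallest p in each direction of the test between cell types. Further genes that completed a count in a list were named after their values were seen. Alternatives were DESeq2 1.42.0 (size factors, or its Wald test), no filter on low counts, a replicate block, other cell filters and rules, cells thinned to 2000 UMIs, doublets or mixed barcodes left out, and each library left out, where a lone library is assumed to vary like the others. Some items named by these rules are not reported here.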

Additional observations from a re-analysis of the deposited data

Results flagged for a closer look

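The change from MMPlow to MMPhigh differed between megakaryocytes and macrophages at an adjusted p under 0.05 for 62 of 180 named genes outside the rule (edgeR, interaction term over both kinds of sum), against 737 of 14590 genes (5.05%) in all. The named genes include 12 chosen for the smallest p-values of this test, so their count is partly fixed by that choice. The values are differences of log2 fold changes, megakaryocytes minus macrophages, and no cause was tested. Of the 10 rule genes 9 also differed, all positive, but macrophages were taken from cells that fail the rule, so the rule bears on those.

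On the positive side the difference was 4.92 for Itga2, 4.42 for Esam, 4.23 for Kdr, 3.73 for Trpc6, 3.62 for Vwf, 3.58 for Rhoj, 3.38 for Timp3, 3.29 for Gng11 and 1.88 for Erg, genes of endothelium, platelets or both. Of genes that led in the members over other cells it was 3.30 for F2rl2, 2.48 for Gucy1a1, 2.46 for Alox12, 2.30 for Gnaz, 2.095 for Cd226, 1.70 for Clu, 1.68 for F10, 1.39 for Tmem40, 1.10 for Mrvi1, 1.08 for Prkcq and 1.06 for Rgs18. These leading genes, and Trpc6 above, were chosen in the same data for their level in members over other cells. That choice bears on their differences, as the rule does on those of the rule genes. In all other filtered cells each of them also stood lower in MMPhigh than in MMPlow. Of other genes of the lineage's lists it was 2.03 for Clec1b, 1.98 for F2r, 1.86 for Gp1ba, 1.74 for Tuba4a, 3.39 for Tuba8, 1.51 for Zfpm1, 1.49 for Angpt1, 1.38 for Slc18a2, 0.66 for Zyx, 0.65 for Ccnd3, 0.61 for Sptbn1, 0.55 for Zfp521 and 0.50 for Prkar2b. For the remaining positive genes it was 3.55 for Sardh, 1.11 for Ppif, 1.03 for Mest, 1.01 for Jun, 0.75 for Slc8a1, 0.63 for Ctss, 0.60 for Car2, 0.56 for Pola1 and 0.46 for Top2a.

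On the negative side the difference was -4.26 for Stfa1, -3.50 for Ecscr, -2.98 for Cd34, -2.88 for Rasgrp3, -2.87 for Ccr2, -2.42 for Ldlrad4, -2.34 for Ramp2, -2.17 for Tmem163 and -2.09 for Ank3. It was -1.87 for Vim, -1.84 for Sparc, -1.30 for Ccnd1, -1.29 for Mpo, -1.21 for Zfpm2, -1.17 for Ptprm, -0.91 for Gins2, -0.62 for Coro1a, -0.54 for Plek, -0.50 for Malat1 and -0.46 for Cd9. The alternatives of this test were DESeq2 size factors, no filter on low counts and each library left out. Thinned cells and the removal of doublets or mixed barcodes were not tried for it. Without mixed barcodes Ctss and Slc8a1 lost their call in megakaryocytes, as given above. Of the 62 genes, 39 kept their call under the 6 alternatives, and the other 23, among them Zyx and Ccnd3 without MMPlow 1 and Ramp2, Zfpm2, Ecscr and Erg without MMPhigh 2, lost it in at least 1.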

How the results depend on the processing

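The count of 2067 genes called in megakaryocytes became 971 with DESeq2's Wald test, 799 in cells with at least 5000 UMIs and 2000 genes, 573 with cells thinned to 2000 UMIs, 1270 with doublets left out, 3103 under the looser rule and 1296 under the stricter rule. Restricted to genes at least 2-fold above or below other cells, a split chosen after seeing the data, it was 82 and 377. Leaving out 1 library gave 394 to 3277 genes, and for the difference between cell types 352 to 1415 in place of 737. The cause of these shifts was not tested, and without MMPhigh 1 both counts were at their highest. With the replicate number as a block 1723 genes were called. The numbers share no stated source, and the correlation between the fractions' replicate differences was 0.054, so they were not taken to pair the libraries. Over genes, the SD of the log2 difference between replicates was 0.35 in MMPlow and 0.714 in MMPhigh. The spread behind the p-values was thus unequal between the fractions. A fit without 1 MMPhigh library takes its spread between replicates from the MMPlow pair alone. The S phase difference (log2) turned from -0.07 to 0.0076 under the stricter rule, 0.045 in cells with at least 5000 UMIs and 0.0705 with TMM-scaled totals, and ranged from -0.318 to 0.141 with 1 library left out. Of the named genes, 40 of 129 called kept their call in all 16 alternatives. Without mixed barcodes the fold change turned to -0.21 for Lgmn, -0.15 for Ctss, -0.56 for Apoe, -0.27 for Spi1 and -0.56 for Cd53. In thinned cells it turned to 0.19 for Esam and -0.81 for Meg3, and with 1 library left out it ran from -1.40 (without MMPhigh 2) to 1.14 (without MMPhigh 1) for Hbb-bh1. The depth of 1093877 UMIs in the MMPhigh 1 members limits genes under 2.74 CPM there.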
